A study of Mus musculus with 9 samples.

Results

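The *Hox* genes on the Illumina MouseWG-6 array were described by cluster and by position within the cluster. Members were all genes whose symbol in the platform annotation is that of a *Hox* gene of the list, whatever their signal, and they comprised 38 of 19406 named genes and 53 of 46643 probes. The HoxA and HoxB clusters held 10 members each and the HoxC and HoxD clusters 9 each. Of the 38 genes, 26 had 1 probe and 12 had several.

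*Hox* genes encode homeodomain transcription factors and lie in 4 clusters on different chromosomes. Within a cluster, genes at the 3′ end are switched on early and far forward in the embryo, in the hindbrain, and genes toward the 5′ end are switched on later and nearer to the tail, so that a cell's set of *Hox* genes records its place on the head-to-tail axis. Genes at matching positions of different clusters form paralog groups, numbered from 1 at the 3′ end to 13 at the 5′ end. Retinoic acid (RA), a vitamin A derivative made by the somites beside the developing spinal cord, acts through nuclear receptors on DNA and is a classic inducer of *Hox* genes of the hindbrain and neck region. Here groups 1 to 3 are called anterior, 4 to 8 central and 9 to 13 posterior.

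The study took embryonic stem cells of the mouse (mESCs, a line spelled G6B-2 in the labels) toward neural cells and asked how RA during embryoid body (EB) formation changed gene expression. Undifferentiated mESCs stand for day of differentiation (DoD) 0 and untreated EBs for DoD 2. On DoD 8 there were EBs that had received vehicle (C) or RA at 1 nM (R9), 10 nM (R8) or 100 nM (R7), and on DoD 36 neurospheres from the C, R8 and R7 cultures. Vehicle, labelled as 0.1% ethanol although the series text names another solvent, or RA was present from DoD 2 to DoD 6 only, so the neurospheres had grown for weeks without it. The study's methods state that RNA of 6 biological replicates was mixed for 1 array per condition, so there was no replicate error and no p-value is given.

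All conditions came from this mESC line, and the arrays hold RNA of whole cultures. The study maintained mESCs with leukemia inhibitory factor and left it out once cells were transferred on DoD 0 to form EBs. From DoD 8 the cultures grew on coated plates, and later in neural medium until DoD 36. Stages therefore also differ in medium and plate. In such bulk RNA, fewer cells of a type and less RNA per cell cannot be told apart. The R9 array is known from its label alone, and the labels call the last stage day 29 where the study's text has DoD 36. Signals are in array units after scaling each array to the same median over 16146 probes detected on all 9 arrays, with a floor of 4.1 to 5.8, and a probe counted as detected at an unscaled signal of 29.1. Signals of different probes are not compared with each other. A difference is the log2 of 1 signal over another. For a gene that only 1 of a pair of arrays detected, the difference was measured from the detection level and is given with the words at least. As a yardstick, the spread (robust SD) between the C and R9 arrays of DoD 8 was 0.58 log2 for probes of 53.0 to 74.6 and 0.15 for probes above 3928, and it holds any effect of 1 nM RA. Single differences of dim probes just past 2-fold are therefore within the reach of that pair.

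The stage labels were checked against marker genes. *Pou5f1* (Oct4, a defining factor of undifferentiated mESCs) had a signal of 26819 on DoD 0, 14908 with C on DoD 8 and 141.0 with C on DoD 36. The C array of DoD 36 also held high endoderm markers, with *Ttr* at 20233 and *Sox17* at 6664, and its *Gfap*, the astrocyte filament gene, was 169 against 25508 with R7. Detected probes numbered 20737 to 23008 per array. The 0.99 quantile of background signal was 56.0 with R8 and 77.6 with R7 on DoD 36 and 24.7 to 32.2 elsewhere, so dim signals on those 2 arrays are less certain.

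Of the 38 *Hox* genes, 30 were detected by at least 1 probe on at least 1 array, and 8 were not detected anywhere (*Hoxa6*, *Hoxa11*, *Hoxa13*, *Hoxb8*, *Hoxc11*, *Hoxc12*, *Hoxd1* and *Hoxd10*). Each gene is represented by its brightest probe unless another is named. By that probe, 11 genes were detected in mESCs, 18 on DoD 2, and 17, 20, 23 and 26 with C, R9, R8 and R7 on DoD 8. On DoD 36, 16 were detected with C, 19 with R8 and 24 with R7. Of all 19406 genes, 62.2% were detected with C and 63.4% with R7 on DoD 8, and 60.0%, 64.7% and 64.6% with C, R8 and R7 on DoD 36. When each array was read at its own background level instead, 19, 20, 25 and 26 *Hox* genes were detected on DoD 8 in order of dose. On DoD 36 the count was then 16 on each of the 3 arrays, so the step with dose on that day depended on the common detection level. Of the central genes, 8 of 15 were detected with C and 13 with R7 on DoD 8, against 6 and 8 of the 16 posterior genes.

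**Figure D1:**
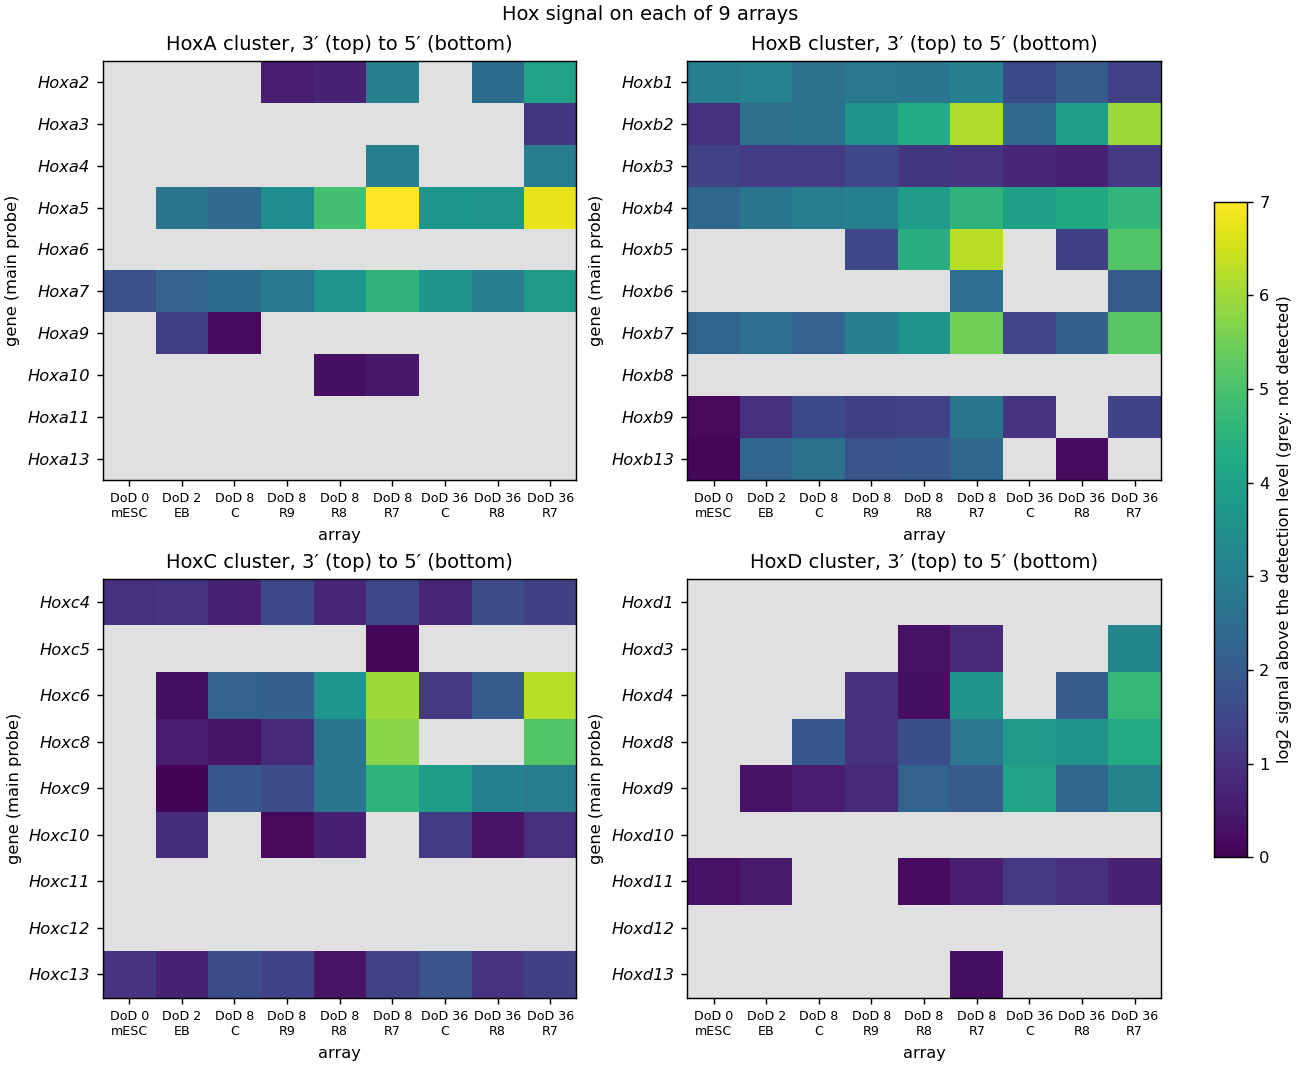
Signal of the 38 *Hox* genes (rows, by cluster and from the 3′ to the 5′ end) on the 9 arrays (columns), colour showing log2 scaled signal of the brightest probe. At the common detection level, *Hox* genes number 17 with C and 26 with R7 on DoD 8, and 16 and 24 on DoD 36. Colours are read along a row, since probes differ in brightness.

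The DNA before the start sites of genes that were higher with RA is shown because RA receptors bind DNA directly. RefSeq (GRCm38.p6) gave a window of 250 bases before to 50 after the start for 22 of the 38 genes. Each window was searched on both strands for AGGTCA, or TGACCT on the other strand, the core half-site of nuclear receptors. It was present in 7 of 22 *Hox* windows (31.8%) and in 5340 of 32851 windows of all genes in the table (16.3%). Of 7 *Hox* genes with a window that were at least 2-fold higher with R7 on DoD 8 or DoD 36, 4 had it (*Hoxa5*, *Hoxb4*, *Hoxd3* and *Hoxd4*), and 3 of 15 others did. Below are 250 bases before the start of 4 of these genes, of which *Hoxa2* lacks the motif, and 30 bases after the start of *Hoxa5*, with the motif in capitals and each strand read in the direction of the gene.
*Hoxa2*, chr6:52164832-52165081, minus strand: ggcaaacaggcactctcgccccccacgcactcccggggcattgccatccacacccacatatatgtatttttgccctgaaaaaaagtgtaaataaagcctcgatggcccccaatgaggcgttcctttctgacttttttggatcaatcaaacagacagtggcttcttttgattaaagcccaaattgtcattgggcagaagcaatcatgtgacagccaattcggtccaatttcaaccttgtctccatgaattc
*Hoxb4*, chr11:96318017-96318266, plus strand: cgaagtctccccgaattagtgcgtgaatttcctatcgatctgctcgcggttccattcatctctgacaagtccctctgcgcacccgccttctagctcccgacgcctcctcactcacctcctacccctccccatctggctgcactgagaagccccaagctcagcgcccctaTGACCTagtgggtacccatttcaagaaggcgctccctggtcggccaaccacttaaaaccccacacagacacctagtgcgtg
*Hoxd3*, chr2:74711743-74711992, plus strand: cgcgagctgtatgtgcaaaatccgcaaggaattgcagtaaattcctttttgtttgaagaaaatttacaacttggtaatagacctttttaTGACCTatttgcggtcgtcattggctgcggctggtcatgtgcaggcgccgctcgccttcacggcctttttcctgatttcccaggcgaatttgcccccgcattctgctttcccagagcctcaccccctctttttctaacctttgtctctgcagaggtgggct
*Hoxd4*, chr2:74721728-74721977, plus strand: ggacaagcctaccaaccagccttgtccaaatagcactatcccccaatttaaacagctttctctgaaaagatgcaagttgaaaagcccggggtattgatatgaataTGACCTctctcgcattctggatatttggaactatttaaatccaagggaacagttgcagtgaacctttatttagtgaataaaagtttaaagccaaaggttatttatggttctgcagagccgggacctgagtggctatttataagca
*Hoxa5*, chr6:52204538-52204567, minus strand: agtgcacgagtttacctctagAGGTCAtca
The motif began at position -81 of *Hoxb4*, -161 of *Hoxd3*, -145 of *Hoxd4* and 41 of *Hoxa5*, with the start site as position 0. RA response elements of the DR5 and DR2 kinds, meaning direct repeats of a half-site with a spacer of 5 or 2 bases, were in none of the 22 *Hox* windows on either strand. The half-site could be AGGTCA and could also take the form GGGTCA, while another accepted form was AGTTCA and a last accepted form was GGTTCA. Such repeats were in 0.0974% (DR5) and 0.268% (DR2) of all windows. A match is a stretch of letters and was not shown to be a binding site, and enhancers farther from the start were not searched.

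On DoD 8, central *Hox* genes were much higher with 100 nM RA than with vehicle, some anterior and posterior genes were higher, and none was at least 2-fold lower. Of 27 *Hox* genes that could be measured, 15 were at least 2-fold higher (55.6%), where 5.58% of all genes were, and 0 were lower, where 3.47% of all genes were. The median log2 difference was 1.37 for *Hox* genes and -0.05 for all genes. Genes detected on only 1 of the arrays could pass only one way, and among the 16 *Hox* genes detected on both arrays 10 were higher (62.5%, against 4.36% of all genes). By position, 2 of 5 measured anterior, 10 of 13 central and 3 of 9 posterior genes were higher, with medians of 0.76, 2.92 and 0.38. Bounds made up 2, 5 and 4 of these values in the same order. By cluster, 4 of 6 HoxA, 6 of 9 HoxB, 3 of 6 HoxC and 2 of 6 HoxD genes were higher.

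**Figure D2:**
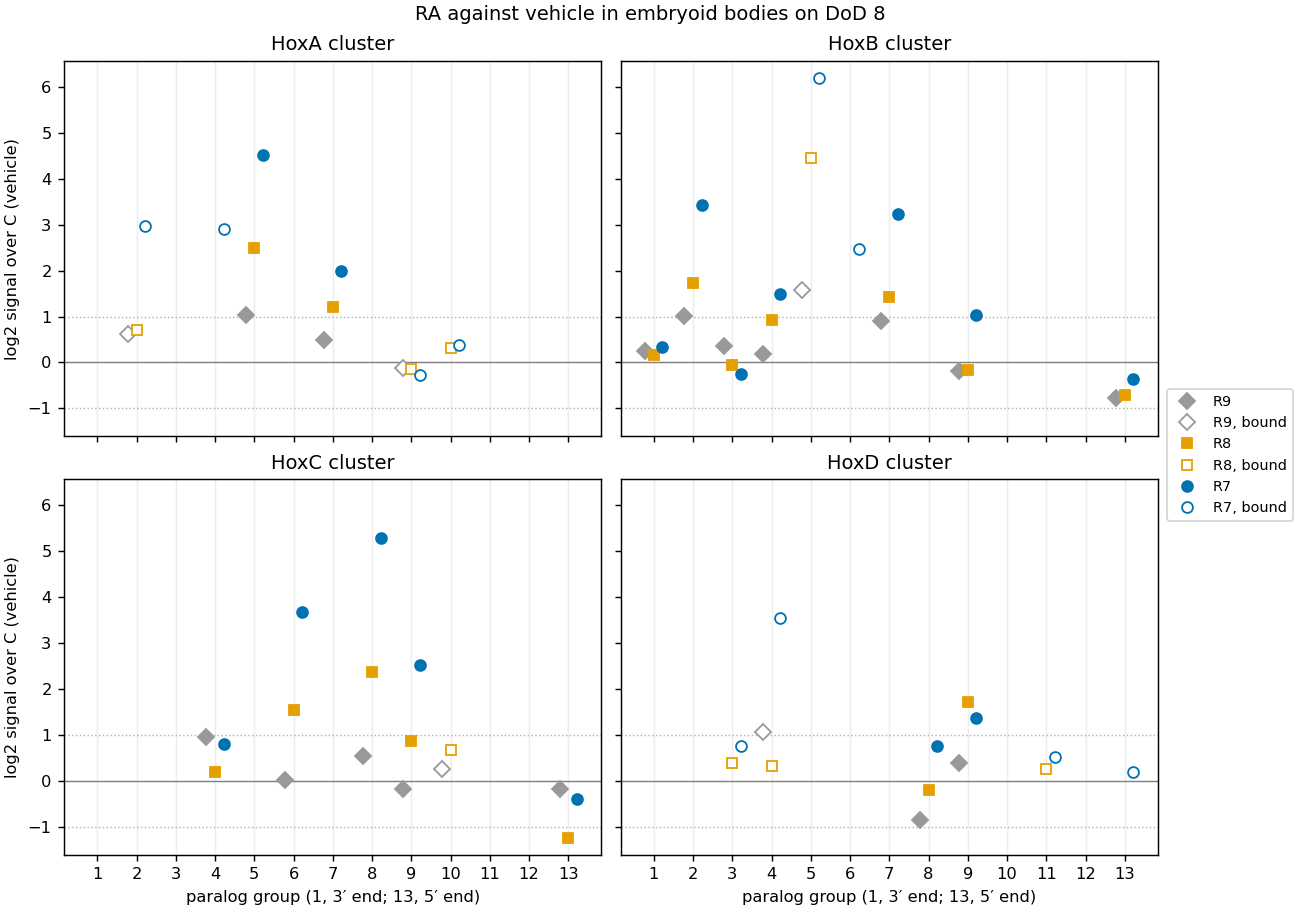
Log2 signal over C on DoD 8 (vertical axis) against paralog group (horizontal axis) for each cluster, with R9 (grey), R8 (orange) and R7 (blue). Open symbols are bounds, from genes that only 1 of the 2 arrays detected (bounds of 0 are left out), and dotted lines mark 2-fold. With R7 the tallest points lie in groups 2 to 8, led by *Hoxb5* at 6.19 or more and by the brightest *Hoxc8* probe at 5.28, which its second probe did not share. No R7 point of groups 10 to 13 passes 2-fold.

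Among anterior genes, *Hoxb2*, a gene of rhombomere 4 in the hindbrain and its facial motor neurons, had signals of 182 (C), 367 (R9), 599 (R8) and 1972 (R7). It was higher at each dose, and the log2 difference from C was 1.02, 1.72 and 3.44. *Hoxa2*, which sets the identity of the second pharyngeal arch and of anterior rhombomeres, had 5.0, 44.8, 47.9 and 229.9 in the same order. It was at the floor with C, near the detection level with R9 and R8 and well above it with R7, by at least 2.97. *Hoxd3*, a gene of the neck region, had 5.0, 5.3, 38.4 and 49.5, and with R7 it was at least 0.76 above C, a bound that does not settle whether it passed 2-fold. *Hoxb1*, the rhombomere 4 gene that is among the earliest *Hox* genes to respond to RA in the mouse embryo, had 181, 216, 203 and 228. These signals differed by at most 0.33 from C, and *Hoxb3*, with 68.9, 88.0, 66.6 and 58.1, was equally flat. *Hoxa3* was not detected on any DoD 8 array.

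*Hoxa5*, a central gene needed for lung formation and phrenic motor neurons, had 160.1 (C), 329 (R9), 901 (R8) and 3696 (R7). The signal was higher at every step of dose, with log2 differences of 1.04, 2.49 and 4.53 from C. The first of these is from the yardstick pair itself, whose spread was 0.39 for probes of 109 to 171 and 0.33 for probes of 171 to 284. *Hoxb5*, a gene of the hindbrain, neck and enteric nervous system, had 10.7, 87.8, 641 and 2147. It was below detection with C, and its difference of at least 6.19 with R7 was the largest of the 38 genes in that comparison. *Hoxb7*, a trunk gene, had 135, 252, 360.4 and 1263, a difference of 3.23 with R7. *Hoxb4* and *Hoxa7* moved less. *Hoxb4*, a gene of the hindbrain and neck and of blood progenitors, had 229, 259, 431 and 641 and a difference of 1.49. *Hoxa7*, a gene of the trunk, had 162, 228, 377 and 646 and a difference of 1.99.

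Some central genes appeared on the R7 array only. *Hoxa4*, a neck-level gene, had 5.0 (C), 5.3 (R9), 25.9 (R8) and 221 (R7), and *Hoxb6*, a trunk gene, had 5.0, 5.3, 14.9 and 163. Both were below detection up to 10 nM and were at least 2.92 and at least 2.47 above C at 100 nM. *Hoxd4*, a gene of the posterior hindbrain whose window above carries the half-site, had 28.8, 61.1, 36.7 and 340.0. It was detected with R9 and R8 but not in order of dose, and with R7 it was at least 3.54 above C. *Hoxc5* was detected on the R7 array alone, at 29.2, just above the detection level.

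The HoxC cluster had its large differences at groups 6, 8 and 9. *Hoxc6*, which marks motor neurons at the level of the forelimb, had 135 (C), 136 (R9), 389 (R8) and 1717 (R7). *Hoxc8*, a gene of the brachial and thoracic spinal cord, had 38.6, 56.3, 198 and 1498. *Hoxc9*, which specifies thoracic motor neurons, had 111, 97.1, 201 and 633. All 3 lay within 2-fold of C with R9, and with R7 the differences were 3.67, 5.28 and 2.52. *Hoxc4* by its brightest probe had 45.5, 88.3, 52.1 and 79.2, with no difference of 2-fold or more.

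No posterior gene beyond group 9 was at least 2-fold higher with RA on DoD 8. *Hoxb9* had 87.9 (C), 76.8 (R9), 78.0 (R8) and 179.9 (R7), a difference of 1.03 with R7 that lay at the threshold. *Hoxd9*, a gene of the lumbar region and limbs, had 42.9, 56.1, 142 and 111, so it was higher with R8 than with R7 (1.72 and 1.37 above C). *Hoxb13*, a gene of the tail and prostate, had 184, 107, 113 and 142 and lay 0.37 to 0.78 log2 below C with RA. *Hoxc13*, a gene of hair and nails, had 92.3, 81.2, 39.0 and 70.1. By brightest probes it was the only *Hox* gene at least 2-fold lower in any comparison of RA with C on DoD 8, by a log2 difference of -1.24 with R8, at signals where the yardstick spread was 0.58. The posterior genes *Hoxa10*, *Hoxd11* and *Hoxd13* had signals of 33.5 to 41.7 with R7, at least 0.19 to at least 0.51 above C, and bounds of this kind set no upper limit. *Hoxd8*, a central gene at the 5′ side of its class, had 111, 61.9, 97.3 and 187 and a difference of 0.75 with R7.

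The lower doses gave smaller numbers. With R8, 8 of 24 measured *Hox* genes were higher (*Hoxa5*, *Hoxa7*, *Hoxb2*, *Hoxb5*, *Hoxb7*, *Hoxc6*, *Hoxc8* and *Hoxd9*) and 1 was lower, where 3.2% of all genes were higher and 2.08% lower. With R9, 4 of 21 were higher (*Hoxa5*, *Hoxb2*, *Hoxb5* and *Hoxd4*) and 0 were lower, where 2.18% of all genes were higher and 1.5% lower. The R9 differences of these 4 genes were 1.04, 1.02, at least 1.58 and at least 1.06, and the last 2 are lower bounds over a C signal below detection. The median difference of the measured *Hox* genes was 0.35 with R9, 0.53 with R8 and 1.37 with R7, each against the same C array. Over *Hox* genes detected on both arrays it was 0.30, 0.89 and 1.43. Between R7 and R8, which share no array, 12 of 27 *Hox* genes were higher with R7 and 0 were lower, where 3.73% of all genes were higher and 2.7% lower.

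Signals stood in order of dose (R7 above R8 above R9, R9 not below C, and R7 at least 2-fold above C) for 9 of 28 *Hox* genes measured on DoD 8. These were *Hoxa2*, *Hoxa5*, *Hoxa7*, *Hoxb2*, *Hoxb4*, *Hoxb5*, *Hoxb7*, *Hoxc6* and *Hoxc8*, all of groups 2 to 8, and 2.38% of all genes met the same rule. From R8 to R7 the log2 difference was largest for *Hoxd4* (3.21), *Hoxc8* (2.92) and *Hoxa4* (at least 2.87). For *Hoxb2*, *Hoxb5* and *Hoxb7* it was 1.72, 1.74 and 1.81. The other measured HoxB genes ranged from -0.20 for *Hoxb3*, through 0.17 for *Hoxb1*, 0.57 for *Hoxb4* and 1.21 for *Hoxb9*, to at least 2.43 for *Hoxb6*.

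Probes of the same gene did not always agree. *Hoxa7* was alike with both of its probes, the second having 111 (C), 186 (R9), 285 (R8) and 708 (R7) on DoD 8. The second probe of *Hoxc8* had 96.9, 44.3, 74.0 and 80.8 and the second probe of *Hoxc6* had 63.2, 53.1, 72.2 and 58.3, and neither showed the large differences of the brightest probe with R7. Where in the transcript these probes lie was not analysed here, so the large *Hoxc6* and *Hoxc8* values rest on 1 probe each. For *Hoxc8* the R7 signals also decided which probe was brightest over the 9 arrays. Chosen without the 2 R7 arrays, the probe of *Hoxc8* was the second one, with R7 differences of -0.26 on DoD 8 and -0.46 on DoD 36, and the probes of the 11 other *Hox* genes with several were the same. With probes chosen in this way, 14 *Hox* genes were higher with R7 on DoD 8 and 10 on DoD 36. *Hoxc4* and *Hoxa9* were 2-fold higher with R7 by a dimmer probe only. For *Hoxc4* that probe had 41.3, 90.5, 59.4 and 127, a difference of 1.63 with R7, and for *Hoxa9* it had 5.0, 31.6, 35.4 and 95.9, at least 1.71 above C. The brightest *Hoxa9* probe, 33.5 with C and 4.7 with R7, pointed the other way at the detection level. The second *Hoxb7* probe stayed at 32.6 or below on all 9 arrays, and the second *Hoxb3* probe reached 74.1 with R8 and was at 17.8 or below on the other DoD 8 arrays.

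**Figure D3:**
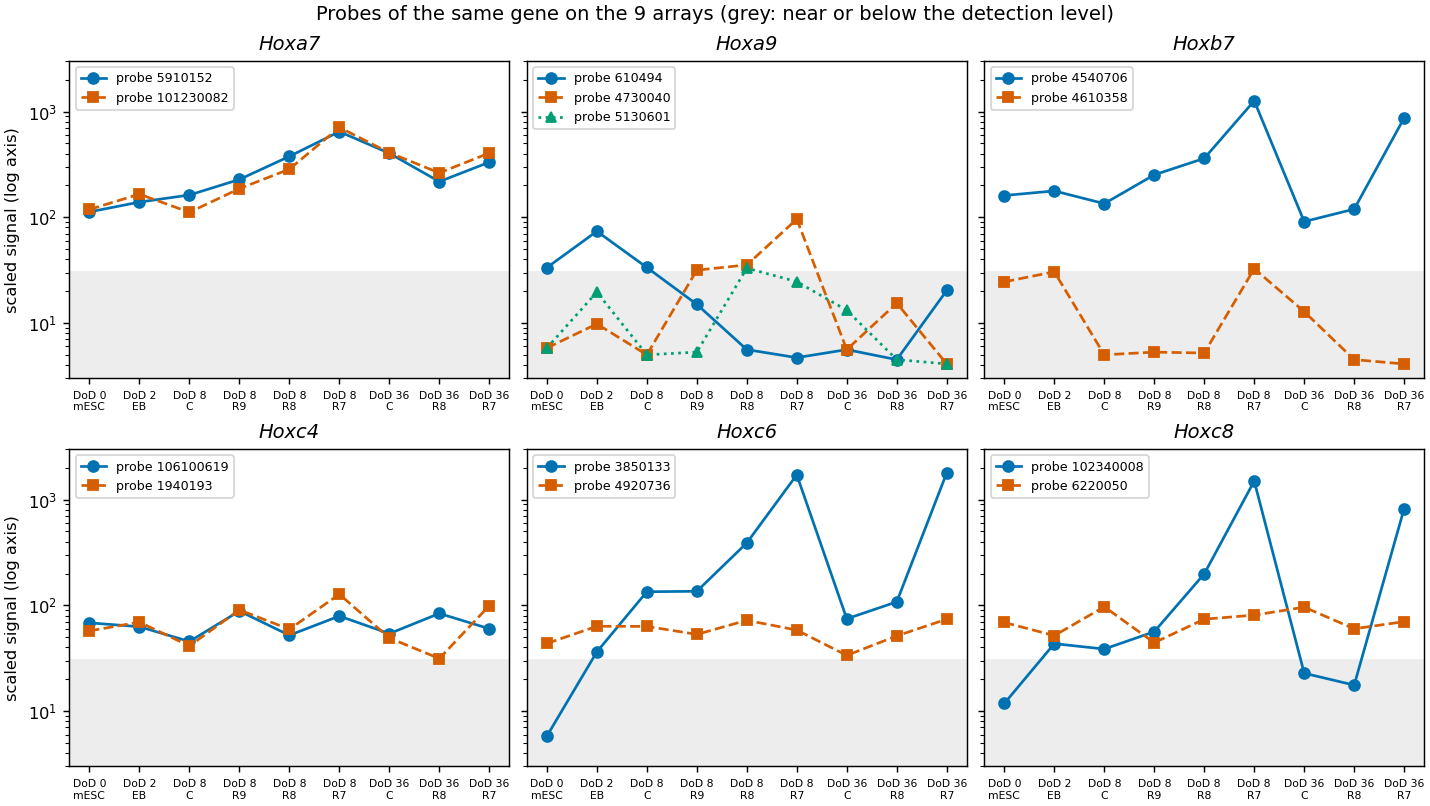
Scaled signal (log axis) of each probe of 6 *Hox* genes with several probes on the 9 arrays, 1 line per probe, with a grey band near or below the detection level. With R7 on DoD 8 the *Hoxc8* probes read 1498 and 80.8 and the *Hoxc6* probes 1717 and 58.3, while the *Hoxa7* probes read 646 and 708.

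In the neurospheres of DoD 36, weeks after RA had been removed, 8 of 12 measured central *Hox* genes and 3 of 6 anterior ones were at least 2-fold higher with 100 nM RA than with vehicle, and no posterior gene was. Of 24 *Hox* genes with a value, 11 were at least 2-fold higher (45.8%) and 2 lower, where 12.7% of all genes were higher and 12.3% lower. The median was 0.42 for *Hox* genes, bounds included, and -0.28 for all genes. Over the genes detected on both arrays it was -0.08 for *Hox* genes and -0.34 for all genes, so the sign of the *Hox* median rested on the bounds. The anterior and central medians, bounds included, were 1.70 and 2.58, and of 6 measured posterior genes 2 were lower, with a median of -0.96. Bounds made up 3 of the anterior, 5 of the central and 0 of the posterior values. The medians by position are thus not on equal terms. Of anterior genes detected on both arrays, *Hoxb2* was at 3.05, *Hoxb3* at -0.04 and *Hoxb1* at -0.66. Central ones were *Hoxc6* (4.59), *Hoxb7* (3.26), *Hoxa5* (2.64), *Hoxb4* (0.16), *Hoxc4* (0.155), *Hoxd8* (0.04) and *Hoxa7* (-0.28). Of the 11 higher genes, 7 were below detection with C, and among the 16 genes detected on both arrays 4 were higher (25.0%, against 10.8% of all genes) and 2 lower. That the median of all genes lay at -0.28 depended on the scaling, and it was 0.16 without scaling and -0.50 with scaling to the 0.75 quantile.

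**Figure D4:**
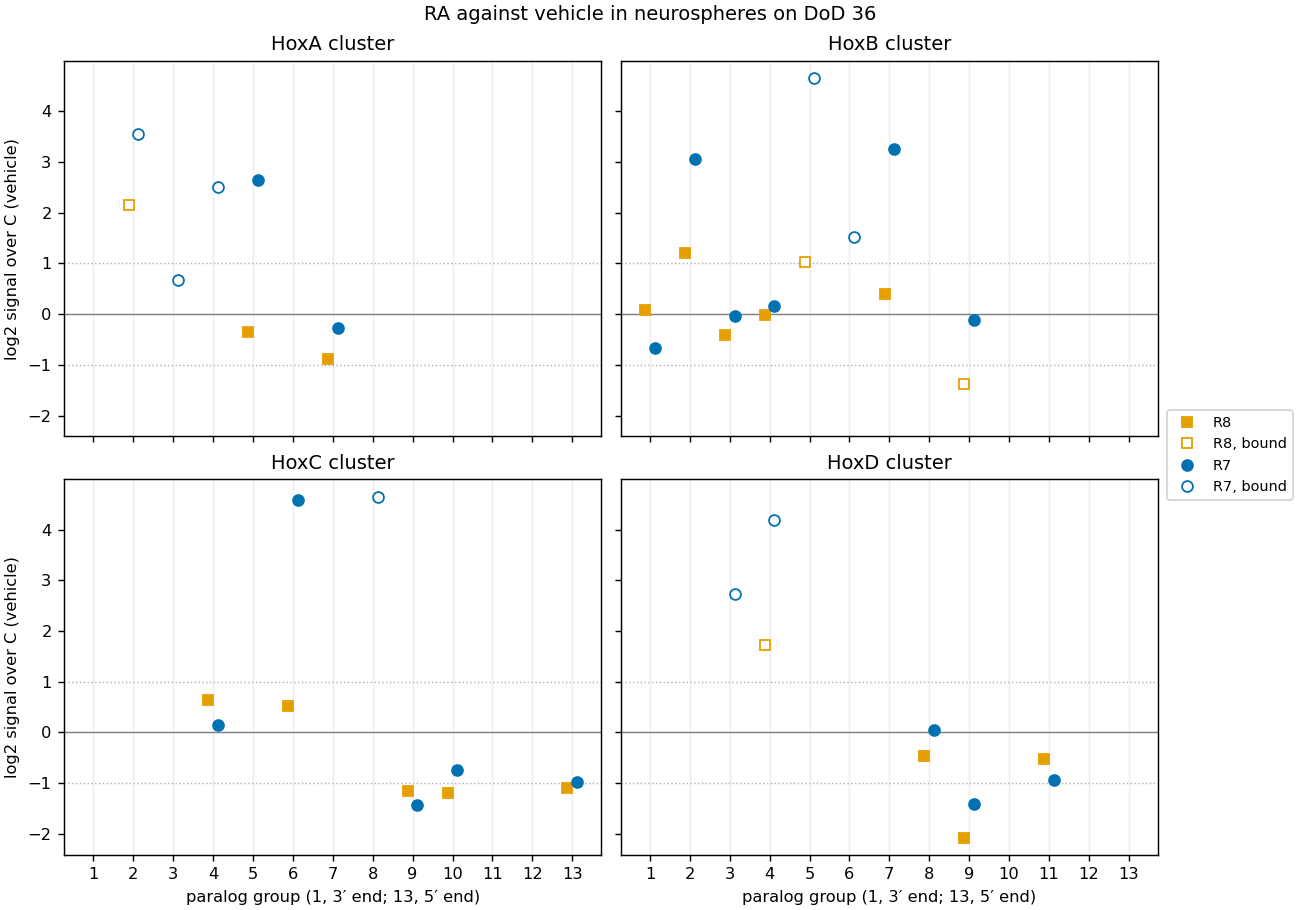
Log2 signal over C on DoD 36 (vertical axis) against paralog group (horizontal axis) for each cluster, with R8 (orange) and R7 (blue). Open symbols are bounds (those of 0 are left out) and dotted lines mark 2-fold. With R7, genes of groups 2 to 8 reach up to 4.66, and *Hoxc9* and *Hoxd9* lie at -1.42.

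*Hoxa2* had signals of 5.6 (C), 147 (R8) and 386 (R7) on DoD 36, *Hoxb2* had 179, 415 and 1485, and *Hoxd3* had 5.6, 4.5 and 217. The anterior genes *Hoxa2* and *Hoxb2* were higher with both doses, by at least 2.16 and by 1.21 with R8 and by at least 3.56 and by 3.05 with R7, and *Hoxd3* with R7 alone, by at least 2.73. *Hoxb1* had 98.0, 104.0 and 61.9 and *Hoxb3* had 55.7, 41.6 and 54.0, differences of -0.66 and -0.04 with R7. *Hoxa3* had 23.4, 5.1 and 52.0, at least 0.67 above C at the common detection level. Its R7 signal lay below the 0.99 background quantile of that array, and its other probes were not detected on any array.

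Of the central genes, *Hoxa5* had 417 (C), 329 (R8) and 2606 (R7) on DoD 36. With 10 nM it was within 2-fold of C (-0.34), and with 100 nM it was 2.64 above it. *Hoxb7* had 91.0, 119 and 870.5, and *Hoxc6* had 74.6, 108 and 1791. Both were near C with R8, by 0.39 and 0.53, and far above it with R7, by 3.26 and 4.59. *Hoxb5* had 5.6, 66.7 and 825, *Hoxd4* had 7.9, 109 and 597, *Hoxc8* had 22.8, 17.6 and 824, *Hoxa4* had 5.6, 4.5 and 186, and *Hoxb6* had 9.6, 4.5 and 94.3. None of these 5 was detected with C, and with R7 they were at least 4.66, 4.19, 4.65, 2.51 and 1.53 above it. *Hoxb6* was the dimmest of them, on an array whose background was raised. *Hoxb4*, with 515, 507 and 576, and *Hoxa7*, with 403, 217 and 332, were not higher with R7, and their vehicle signals were at least 2-fold above those of DoD 8.

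With R8 on DoD 36, 4 of 20 measured *Hox* genes were higher (*Hoxa2*, *Hoxb2*, *Hoxb5* and *Hoxd4*) and 5 were lower (*Hoxb9*, *Hoxc9*, *Hoxc10*, *Hoxc13* and *Hoxd9*), where 11.2% of all genes were higher and 8.57% lower. Of the 4 higher genes, *Hoxa2*, *Hoxb5* and *Hoxd4* were below detection with C and could pass only upward. Among the 15 *Hox* genes detected on both arrays, 1 was higher (6.67%, against 9.52% of all genes) and 4 were lower (26.7%, against 8.97%). The 4 higher genes belong to groups 2 to 5 and the 5 lower genes to groups 9 to 13. By position, 0 of 7 measured posterior genes were higher, and the posterior median was -1.16 against -0.15 for all genes. Under the 9 other settings tried, only *Hoxd9* of these 9 genes kept its 2-fold difference in every case, and without scaling 2 genes were lower. Between R7 and R8 on DoD 36, 12 of 25 genes were higher with R7 and 0 lower, where 7.67% of all genes were higher and 7.23% lower.

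Posterior genes that were higher with vehicle on DoD 36 included *Hoxd9*, with 553 (C), 131 (R8) and 207 (R7), and *Hoxc9*, with 499.8, 224 and 186. *Hoxd9* was lower with RA by log2 differences of -2.07 and -1.42, and *Hoxc9* by -1.16 and -1.42. On DoD 8 both genes had been higher with R7 than with C. *Hoxc10*, a lumbar gene, had 77.1, 33.9 and 46.0, *Hoxd11*, a gene of the forearm and lumbar region, had 73.8, 51.1 and 38.6, and *Hoxc13* had 118, 55.3 and 60.1. Each was brightest with vehicle, and with R7 the differences of -0.75, -0.94 and -0.98 stayed within 2-fold. *Hoxb9* had 68.4, 23.3 and 63.2. At the common detection level it was undetected with R8 alone, and its R7 signal also lay below that background quantile. *Hoxd8*, the last central gene of its cluster before *Hoxd9*, had 449.6, 325 and 463 and did not share the lower signals with RA past 2-fold. By their dimmer probes, *Hoxc4* and *Hoxc6* had 99.3 and 74.0 with R7 on this day, 1.02 and 1.14 above C.

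**Figure D5:**
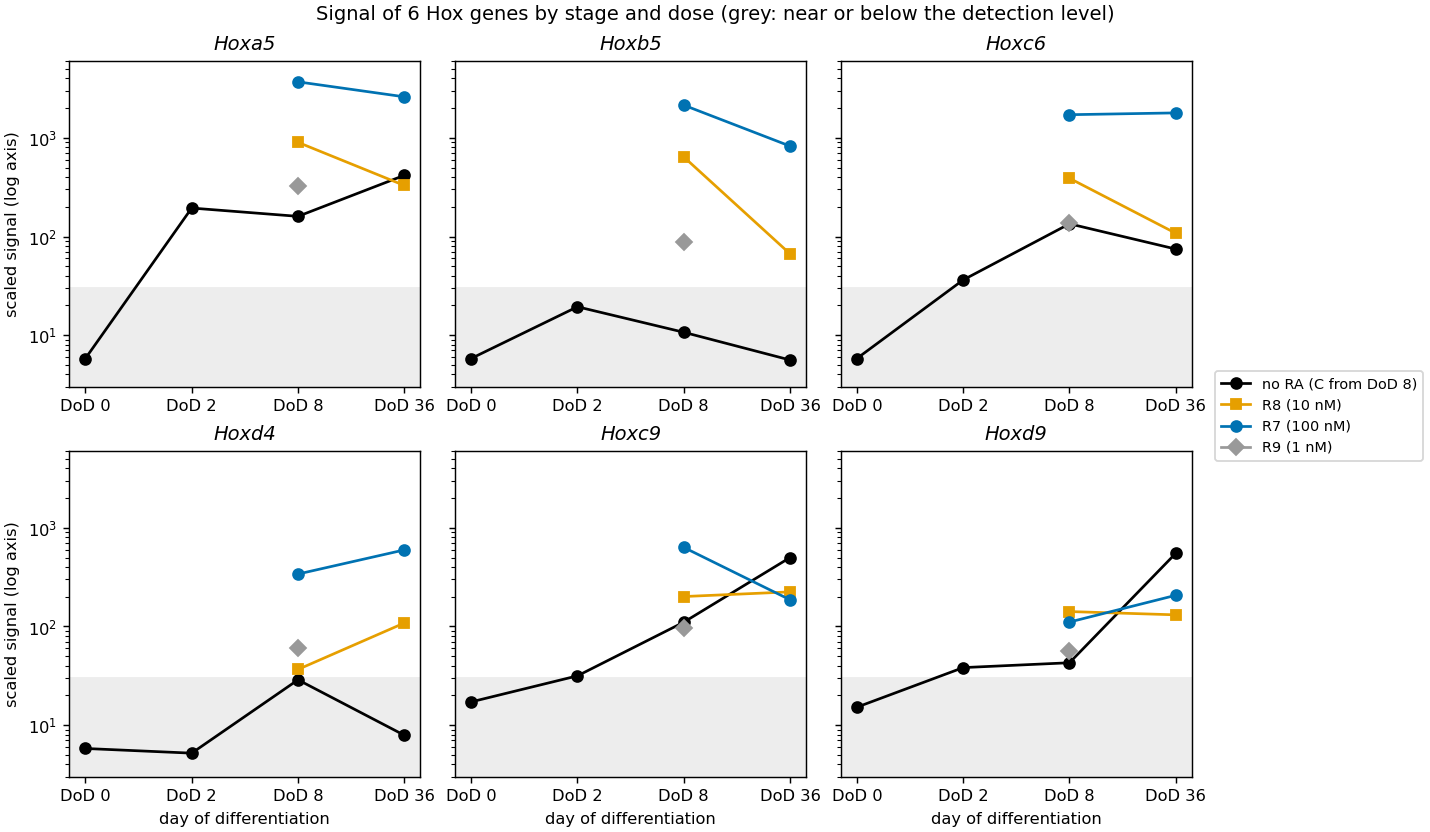
Scaled signal (log axis) of 6 *Hox* genes at each stage (DoD 0, 2, 8 and 36), with lines for cultures without RA (black), R8 (orange) and R7 (blue), a grey point for R9 and a grey band near or below the detection level. *Hoxa5* with R7 reads 3696 and 2606 on the last 2 stages, and *Hoxd9* with C rises from 42.9 on DoD 8 to 553 on DoD 36.

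The R7 and C arrays of DoD 8 and those of DoD 36 share no array, so the same genes can be followed across both. Of 15 *Hox* genes higher with R7 on DoD 8, 10 were higher on DoD 36 as well (66.7%), and 2, *Hoxc9* and *Hoxd9*, were lower. For all genes measured on both days, 302 of 693 were higher again (43.6%) and 93 were lower. The 10 were *Hoxa2*, *Hoxa4*, *Hoxa5*, *Hoxb2*, *Hoxb5*, *Hoxb6*, *Hoxb7*, *Hoxc6*, *Hoxc8* and *Hoxd4*, all of groups 2 to 8. Of these, *Hoxa2*, *Hoxa4*, *Hoxb5*, *Hoxb6*, *Hoxc8* and *Hoxd4* were below detection with C on DoD 36 and could pass only upward that day. *Hoxa5*, *Hoxb2*, *Hoxb7* and *Hoxc6* were detected there, as were all of the genes that were not higher again. The shares of 66.7% and 43.6% include bounds and were not computed without them. With R8, 2 of 7 *Hox* genes were higher again (*Hoxb2* and *Hoxb5*, 28.6%), where 97 of 360 of all genes were (26.9%), a share near that of the background.

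Between stages without RA, some *Hox* genes differed early on. From DoD 0 to DoD 2, *Hoxa5* went from 5.8 to 194, *Hoxb13* from 36.8 to 147, *Hoxb2* from 67.9 to 181 and *Hoxa9* from 33.4 to 73.7. These were the 4 of 18 *Hox* genes at least 2-fold higher (22.2%), and 0 were lower, where 6.07% of all genes were higher and 4.74% lower. By their brightest probes they come from groups 2 to 13. *Hoxa5* and *Hoxa9* were below detection on DoD 0, so their differences are bounds. The second *Hoxb13* probe was not detected on any array, and the other *Hoxa9* probes were not detected on DoD 0 or DoD 2. The 2 posterior genes thus rest on 1 dim probe each. From DoD 2 to C on DoD 8, *Hoxc6* went from 36.3 to 135, *Hoxc9* from 31.6 to 111 and *Hoxd8* from 26.9 to 111. They were the 3 higher of 19 genes (15.8%), and *Hoxa9*, from 73.7 to 33.5, was the 1 lower, where 6.08% of all genes were higher and 4.76% lower.

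From C on DoD 8 to C on DoD 36, 8 of 19 measured *Hox* genes were higher and 1 lower, where 22.7% of all genes were higher and 16.5% lower. The higher genes were 0 of 3 measured anterior, 4 of 8 central and 4 of 8 posterior genes. With 3 anterior genes, a count of 0 cannot be told from the share of all genes. *Hoxd9* went from 42.9 to 553 (3.69), *Hoxc9* from 111 to 499.8 (2.18), *Hoxd8* from 111 to 449.6 (2.01) and *Hoxa5* from 160.1 to 417 (1.38). *Hoxb13* went the other way, from 184 to 15.9, below detection. With vehicle alone, 3 of 3 measured HoxD genes (*Hoxd8*, *Hoxd9* and *Hoxd11*), out of 9 members, were higher in neurospheres than in EBs. *Hoxd11* was below detection with C on DoD 8 and could pass only upward.

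With RA the course between these days had the opposite sign to that with vehicle for some genes. Among them was *Hoxa5*, which differed by 1.38 with C but by -1.45 with R8 and -0.50 with R7. *Hoxc9* differed by 2.18 with C and by -1.76 with R7, but with R8 it went from 201 to 224, the same sign as with C. The difference between the courses was not tested. With R8, 3 of 23 *Hox* genes were higher on DoD 36 than on DoD 8 (*Hoxa2*, *Hoxd4* and *Hoxd8*) and 7 were lower, where 18.2% of all genes were higher and 14.7% lower. The lower genes included *Hoxb5*, from 641 to 66.7 (-3.27), which was not detected with C on either day, *Hoxc8*, from 198 to 17.6 (at most -2.91, against at most -0.24 with C), and *Hoxa5*, from 901 to 329. With R7, 2 of 28 were higher (*Hoxd3*, from 49.5 to 217, and *Hoxd8*, from 187 to 463) and 5 were lower (*Hoxb1*, *Hoxb5*, *Hoxb9*, *Hoxb13* and *Hoxc9*), where 17.6% of all genes were higher and 14.5% lower. *Hoxb1* with R7 went from 228 to 61.9 (-1.88, against -0.89 with C) and *Hoxc9* from 633 to 186.

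Genes that work with or upstream of *Hox* proteins were read from lists. Their counts with R7 stand beside 5.58% of all genes higher and 3.47% lower on DoD 8, and 12.7% higher and 12.3% lower on DoD 36. Of the cofactors that bind DNA together with *Hox* proteins, 3 of 8 measured were higher with R7 on DoD 8 and 0 lower. *Meis2* had 262 (C), 207 (R9), 322 (R8) and 842 (R7), *Meis1* had 1014, 1049, 1389 and 2579, and *Meis3* had 88.4, 124, 114 and 190.1. On DoD 36, 0 of 8 cofactors differed 2-fold with R7. Of the genes of RA response, 4 of 9 measured were higher with R7 on DoD 8 and 1 lower. *Stra6*, the cell's retinol uptake receptor, had 26.0, 42.6, 141 and 414, and *Cyp26a1*, an enzyme that breaks RA down, had 70.1, 79.3, 368 and 354. The binding proteins *Crabp1*, with 180.3, 495, 579 and 466, and *Crabp2*, with 223, 238, 389 and 794, were also higher with R7. On DoD 36, 2 of 9 of these genes were higher with R7 and 3 lower, and *Cyp26a1* was at the floor with R7.

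Of a list of factors taken as upstream of *Hox* genes in the embryo, 0 of 6 measured were higher with R7 on DoD 8 and 1 lower. *Cdx2*, a regulator of trunk *Hox* genes, had 246 (C), 203 (R9), 235 (R8) and 249.5 (R7), and *Wnt3a*, the lower gene, had 153, 149.9, 75.3 and 68.8. On DoD 36, 3 of 5 were higher with R7 and 1 was lower (*Tcf7l1*, by -1.28). The higher genes were *Gbx2* (by 1.82), *Fgf8* (by at least 1.61) and *Egr2* (by at least 1.40). *Egr2* (Krox20), a factor of rhombomeres 3 and 5, had 27.0 (C, below detection), 78.4 (R8) and 86.3 (R7). It was at the floor on all DoD 8 arrays. Of the Polycomb and Trithorax regulators, 2 of 17 were higher with R7 on DoD 8 (*Ezh1* and *Bmi1*) and 0 lower, and on DoD 36 0 were higher and 5 lower. Of the genes next to the clusters, 0 of 9 differed 2-fold with R7 on DoD 8, and 1 of 6 did on DoD 36 (*Cbx5*, higher).

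Markers of other cell types also differed with RA, and their counts with R7 stand beside the same shares of all genes. Mesenchyme markers, whose cells also use *Hox* genes, had a summed signal of 1918 with C, 2265 with R9, 2635 with R8 and 7308 with R7 on DoD 8, and of 6684, 12941 and 35405 with C, R8 and R7 on DoD 36. With R7, 6 of 7 measured were higher on DoD 8 and 7 of 8 on DoD 36, and 0 were lower. Astrocyte markers summed to 1140, 8973 and 38947 on DoD 36, and endoderm markers to 57384, 51003 and 21521. With R7 on that day, 4 of 5 astrocyte markers were higher and 0 lower, and of 8 endoderm markers 1 was higher and 4 were lower. Such sums follow their brightest genes, such as *Gfap* at 25508 with R7 and *Ttr* at 20233 with C. On DoD 8, endoderm markers summed to 4011 with C, 5182 with R9, 7581 with R8 and 7748 with R7, with 6 of 8 higher and 0 lower with R7. *Cdh1* alone had 2412 of the sum with C. Neuron markers summed to 1055, 1495, 1254 and 2102 on DoD 8, and to 2477, 5349 and 1924 with C, R8 and R7 on DoD 36. On DoD 8, *Stmn2* alone had 803 with C and 726 with R7. With R7, 3 of 5 measured were higher and 0 lower on DoD 8. On DoD 36, 1 of 6 was higher, *Map2* of the neuronal cytoskeleton (by at least 1.77), and 2 were lower, *Dcx* of young neurons (by -1.19) and *Snap25* of synapses (by -1.45). Of hindbrain and spinal cord markers, 1 of 8 was higher with R7 on DoD 8 (*Pax6*) and 1 lower (*Olig2*). On DoD 36, 2 of 8 were higher (*Pax6*, and *Olig2* by at least 4.53) and 1 was lower (*Phox2a*). In this list *Mnx1* and *Chat* were not detected on any array, whereas *Isl1* was detected on 6 and *Lhx3* on 9. Of forebrain and midbrain markers, 0 of 5 measured were higher with R7 on DoD 8 and 1 was lower (*Otx2*, by -1.15). On DoD 36, 2 of 4 were higher with R7 (*En1*, by 1.19, and *En2*, by 3.72) and 1 was lower (*Otx1*, by -1.57). With R8 on DoD 36, 3 of 5 were higher and 0 lower, where 11.2% of all genes were higher and 8.57% lower. These were *Otx2*, with 20.9 (C, below detection) and 91.3 (R8), *En1*, 2.38 above C, and *En2*, 3.40 above C. Undifferentiated mESC markers were lower with R7 on DoD 8 for 5 of 6 measured genes and higher for 0. The part of these cell types in the *Hox* values was not tested.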

How the data were processed

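RNA of mESCs, EBs and neurospheres was measured on Illumina MouseWG-6 v1.0 BeadChips. The authors normalized raw values by median centering in GeneSpring GX10.02, and deposited log2 values with 1 constant per array and 1 baseline per probe taken out. These values move in whole steps, and the signal of each probe was recovered from them. Of 46643 probes, 20134 were exact above the floor, 19118 had the lowest array at the floor, 6250 were at the floor on all arrays and 1141 (2.45%) stayed approximate. A step was set to 0.1 signal units and the floor to 5.0, which sets the unit and no difference. Log base 2 gave whole steps for 96.9% of 1000 probes. A second deposited table has 9 signal columns whose names match no sample, and they were not used.

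A probe was detected at 29.1 or more. This level comes from background probes (floor values on 6 or more of the remaining 8 arrays), as the median of the 9 arrays' 0.99 quantiles. The annotation gave 1 symbol for 32794 probes, several for 55 and none for 13794. The probe whose log2 signal had the highest mean across the 9 arrays stood for its gene. *Hox* genes were named with their signals if a probe of theirs was at least 2-fold different with R7 against C on either day, the other genes are given by counts, ranges and the most opposite values, and up to 4 genes per list are named. Genes named outside this rule were chosen after their values were seen. Members and lists were chosen with earlier results of these data known. A gene counted as measured where it was detected on at least 1 of the arrays compared, and its share is set beside that of all genes. With 1 array per condition there was no test, and the number of arrays limits the precision. Promoters were from RefSeq, GRCm38.p6. The steps were tested on simulated data. Alternatives changed the scaling, the detection level, the use of the deposited values and the probe rule, and the probe chosen without the R7 arrays was added after the data were seen. Python 3.11.15, numpy 2.4.6 and pandas 2.3.3 were used.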

Additional observations from a re-analysis of the deposited data

Results flagged for a closer look

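*Hoxc9* and *Hoxd9*, posterior genes of the HoxC and HoxD clusters, lay on opposite sides of vehicle on the 2 days. *Hoxc9* with R7 differed from C by 2.52 on DoD 8 and by -1.42 on DoD 36. *Hoxd9* with R7 differed by 1.37 and -1.42, and with R8 by 1.72 and -2.07. Each group is 1 array, and the difference between the days was not tested. Without scaling, the DoD 36 differences with R7 were -0.96 for *Hoxc9* and -0.95 for *Hoxd9*, and the sign was the same.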

How the results depend on the processing

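No paired analysis was possible because there is 1 array per condition. Of the *Hox* genes 2-fold different from C, 11 of 15 with R7 on DoD 8 stayed so under all 9 alternatives, as did 7 of 13 with R7 on DoD 36, 5 of 9 and 1 of 9 with R8, and 0 of 4 with R9. The last alternative, the brightest probe chosen without the R7 arrays, was added after the data were seen. It turned the sign for *Hoxc8*, to -0.26 and -0.39 with R7 and R8 on DoD 8 and -0.46 with R7 on DoD 36, and no other called difference changed sign. Higher with R9 on DoD 8 were 4 genes, 1 without scaling and 2 at a detection level of 50 or 100. With R8 on DoD 8, 8 became 15 with the deposited values, which have no detection limit. Higher with R8 on DoD 36 were 4, 2 with 0.75 quantile scaling, 2 at level 50 and 1 at level 100. Lower with R8 on DoD 36 were 5, 2 without scaling, 3 at level 50, 2 at level 100, 3 with the background quantile of each array and 11 with the deposited values. Lower with R7 on DoD 36 were 2, 4 with 0.75 quantile scaling, 0 without scaling, 4 with quantile normalization and 6 with the deposited values. From DoD 0 to DoD 2, 4 higher became 0 at level 100 and 13 with the deposited values, and from DoD 2 to C on DoD 8, 3 became 0 at level 100. From DoD 8 to DoD 36, 3 higher with R8 became 1 at level 100 and 2 with R7 became 5 without scaling or with the deposited values. With the deposited values, 7 lower with R8 became 16, 5 with R7 became 10 and 1 with C became 4, and without scaling the last was 3 and at level 100 it was 0. The deposited values also gave 2, 3 and 3 lower with R9, R8 and R7 on DoD 8 (0, 1 and 0 here), 3 and 2 lower between R7 and R8 on DoD 8 and DoD 36 (0 here), and 1 and 3 lower from DoD 0 to DoD 2 and on to DoD 8 (0 and 1 here). The lower gene with R8 on DoD 8 and that from DoD 2 to DoD 8 were lost at levels 50 and 100. The deposited values count genes at the floor and higher levels leave genes out, and otherwise the cause was not tested. Among all genes on DoD 36, 12.7% were higher and 12.3% lower with R7, against 19.5% and 3.47% without scaling and 10.5% and 21.2% with 0.75 quantile scaling. With R8, 11.2% and 8.57% became 16.0% and 3.82%, and 8.4% and 15.4%. With the mean of a gene's probes, the R7 difference on DoD 8 was 2.51 for *Hoxc8* and 1.78 for *Hoxc6*.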

Other observations

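Of 4 non-coding RNAs of the *Hox* clusters with a probe, *Hoxaas3*, from the HoxA cluster, had a signal of 125.9 with R7 on DoD 8 and was below detection on the other 8 arrays, at least 2.10 above C. *Hoxd3os1* was detected on 3 arrays, and *Hoxaas2* and *Hoxb5os* on none. *Hoxaas3* and the other non-coding genes, and *Ezh2* below, were chosen after their values were seen.

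Among the regulators of the clusters, *Ezh2*, the Polycomb methyltransferase, had 4790.0 in mESCs, 6140 on DoD 2, 4156 with vehicle and 2730.0 with R7 in EBs of DoD 8, and 502 with vehicle and 384 with R7 in neurospheres, where R8 gave 671. It was lower on each neurosphere array than on these EB and mESC arrays.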
